A study of Homo sapiens with 4 samples.

Results

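The 39 genes described here encode proteins of DNA replication and of entry into S phase, the part of the cell cycle in which the genome is copied. They were taken by symbol from the 36601 genes in the deposited matrices, and all 39 were found and tested. Single-cell RNA was measured in microglia-like cells grown from human embryonic stem cells of the established line H9. Cells harvested at day 25 of a monocyte protocol were kept for 7 days in 12-well plates, in a medium with TGF-β, IL-34, cholesterol and M-CSF. The question was what blocking γ-secretase, a protease that cuts membrane proteins, does to gene expression, and whether bacterial lipopolysaccharide (LPS) overrides it. Each of 12 cultures was stained with its own hashtag antibody, and the pooled cells were divided between 2 droplet libraries.

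The 4 conditions had 3 cultures each. Ctrl received both vehicles, DMSO for 22 h and PBS for the last 6 h. Sema received semagacestat, which inhibits γ-secretase, at 2 µM over those 22 h, with PBS. LPS received DMSO and, over those 6 h, LPS at 200 ng/mL, and SemaLPS received semagacestat and LPS. All cultures came from 1 cell line and were collected with actinomycin D at 5 µM. The study's design text calls the cultures biological replicates, and nothing says whether they came from separate differentiations, so p-values cover only how far these wells differ. The hashtag labels number the cultures of each condition 1 to 3 without saying what a number stands for.

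Before S phase, CDC6 and CDT1 load the ring of MCM subunits onto replication origins. CDC45 and the GINS complex then turn that ring into an active helicase, polymerase alpha with its primase lays primers, and the clamp PCNA holds polymerases on the DNA. Enzymes such as ribonucleotide reductase and thymidylate synthase supply the nucleotides. Most of these genes are switched on together at the end of G1 by E2F transcription factors, once cyclin-dependent kinases inactivate the retinoblastoma protein. Microglia renew slowly in the brain, and macrophages often leave the cell cycle when they respond to LPS.

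Because the genes moved together, their promoters are shown first. RefSeq promoter windows of the GRCh38.p14 assembly, from 250 bases before to 50 bases after an annotated start, matched 32 of the 39 genes. That start need not be the outer end of the gene. It lay inside the GENCODE v29 span of several genes, among them HELLS, GINS3, UHRF1, RRM2 and GINS2. The windows were searched on both strands for 4 words bound by E2F, TTTGGCGC, TTTCGCGC, TTTCCCGC and TTTGCCGC. At least 1 word was found in 21 of the 32 windows (65.6%) and in 1164 of all 35116 windows (3.32%). The share was 20.0% (8 of 40) for other replication genes, 9.38% (3 of 32) for G2 and mitosis genes and 0 of 11 for microglial genes. The box CCAAT was found in 56.3% of the 32 windows and 34.6% of all windows. The word TTTGAA, common in promoters of mitotic genes, was found in 3.13% of them, 68.8% of the G2 and mitosis windows and 15.2% of all windows. A match is a description and not a shown binding site. The 5 stretches below lie just before the gene start of a gene on which a result turns, 4 with E2F words, in capitals, and PCLAF with none. GCGCCAAA, GCGCGAAA and GCGGGAAA are TTTGGCGC, TTTCGCGC and TTTCCCGC read on the other strand, and in MCM6 a pair of words overlaps by 4 letters.
MCM6, chr2:135876444-135876593, minus strand: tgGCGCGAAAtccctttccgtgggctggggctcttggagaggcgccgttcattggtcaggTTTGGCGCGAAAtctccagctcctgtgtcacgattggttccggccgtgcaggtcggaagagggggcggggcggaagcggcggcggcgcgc
PCNA, chr20:5126627-5126772, minus strand: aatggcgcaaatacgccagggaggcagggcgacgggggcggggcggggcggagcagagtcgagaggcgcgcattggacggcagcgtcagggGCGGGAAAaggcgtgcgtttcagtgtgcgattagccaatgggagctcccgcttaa
E2F2, chr1:23531234-23531383, minus strand: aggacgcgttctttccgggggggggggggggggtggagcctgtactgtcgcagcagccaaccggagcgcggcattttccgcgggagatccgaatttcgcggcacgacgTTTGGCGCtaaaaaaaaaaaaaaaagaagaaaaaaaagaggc
POLA1, chrX:24693768-24693917, plus strand: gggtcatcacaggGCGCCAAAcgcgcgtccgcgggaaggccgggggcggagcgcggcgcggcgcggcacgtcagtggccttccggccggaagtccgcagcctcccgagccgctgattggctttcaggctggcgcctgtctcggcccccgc
PCLAF, chr15:64387688-64387837, minus strand: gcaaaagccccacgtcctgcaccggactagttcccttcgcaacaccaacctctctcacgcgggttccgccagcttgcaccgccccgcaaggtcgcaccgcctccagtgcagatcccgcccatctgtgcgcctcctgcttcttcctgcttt

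In all there were 28943 barcodes with 900761329 unique molecular identifiers (UMIs). After demultiplexing and quality filters, 15054 cells were kept, between 1053 and 1664 per culture. Their summed UMIs were between 30433501 and 51783420 per culture. Of the barcodes, 91 occurred in both libraries, 11 of them among kept cells. Between 20.2 and 39.2% of a culture's singly tagged cells had over 10% mitochondrial UMIs and were left out. The shares were 31.4, 39.2 and 36.6% in Ctrl-1, -2 and -3, 27.0, 36.7 and 37.5% in Sema, 20.2, 24.3 and 31.8% in LPS and 22.6, 26.2 and 32.1% in SemaLPS, with number 1 lowest in each condition. The part of these shares in the results below was not tested. Microglial markers were high throughout, at a summed 7285 to 8695 CPM (counts scaled to the same total UMIs in each culture) over 15 genes, led by TYROBP. TMEM119 and P2RY12, which mark microglia in the brain, averaged 1.89 and 25.8 CPM in Ctrl and 1.53 and 4.16 CPM in LPS. The 7 monocyte markers, led by S100A9, summed to between 319.5 and 353.5 CPM without LPS and between 1159 and 1315 CPM with it. The 7 endothelial and stromal markers, led by PECAM1, lay between 76.8 and 104.0 CPM without LPS and between 34.4 and 51.8 CPM with it. The lists for granulocyte precursors, mast cells, erythroid and pluripotent cells each summed to at most 1.34 CPM, and the neural list to between 3.37 and 13.1 CPM. The part of the monocyte and PECAM1 signals in the results was not tested.

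Most cells carried few of the genes and a minority carried many. With every cell thinned to 10000 UMIs, which left out 403 shallower cells, 61.4% of 14651 cells had 0 to 2 of the 39 genes. A minority of 13.9% (2035 cells) had 8 or more, and 5.19% had 20 or more, with 33 the highest count. Only 2.78% (408 cells) had 6 or 7, just under that bound. Cells with 8 or more are a range of a count and not a cell type. They held between 54.3 and 81.6% of a culture's UMIs of the 39 genes.

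**Figure D1:**
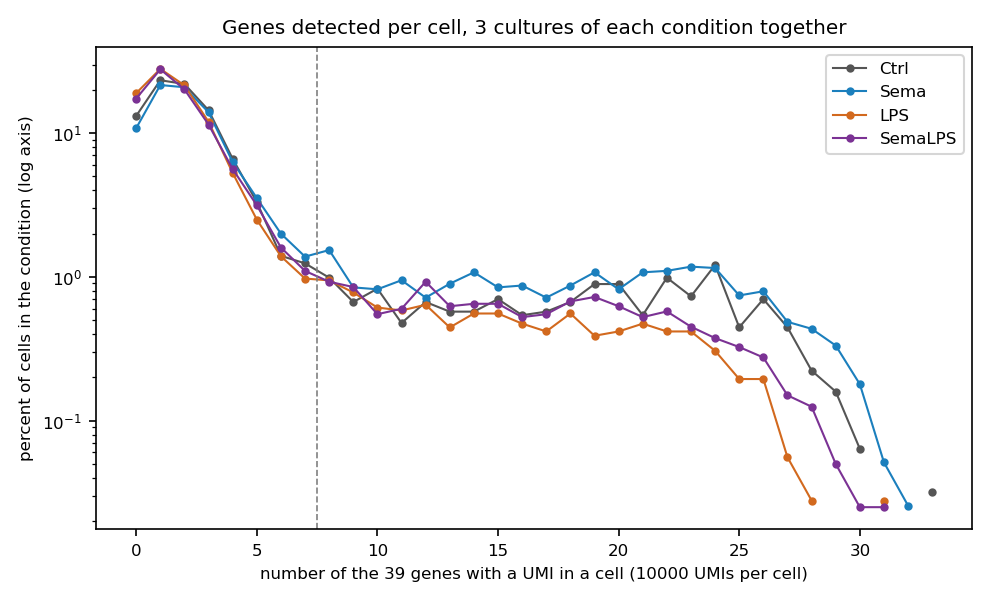
Number of the 39 genes with a UMI in a cell thinned to 10000 UMIs (x axis) against the percent of a condition's cells (y axis, log scale), with 3 cultures of a condition pooled. All 4 lines rise from 0 to 1 gene and fall steeply to about 7 genes, and the dashed line marks the bound of 8 genes. Beyond it there is no steady fall over all conditions together, with 116 cells at 9 genes, 109 at 24 and 63 at 25. From 8 to 24 genes, Ctrl went from 31 to 38 cells and LPS from 34 to 11.

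The genes differed in how far their UMIs were concentrated in that minority. Of the UMIs of FAM111B, a protease family member, 97.2% lay in cells with 8 or more of the other 38 genes. The shares were 96.8% for the repressor E2F8, 94.6% for E2F2, 94.1% for MCM10 and 92.9% for RRM2. At the other end were RFC2 of the clamp loader (37.3%), POLA1, the catalytic subunit of polymerase alpha (43.6%), CCNE1 (48.6%) and MCM5 (50.9%). PCNA had a UMI in 32.7% of thinned cells (57.4% without thinning). It had one in 84.9% of the cells with 8 or more other genes and in 22.0% of those with 0 or 1. E2F8 had one in 3.22% of thinned cells (6.82% without thinning), in 22.2% of the cells with 8 or more others and in 0.0846% of those with 0 or 1. For PCNA and E2F8 the share in cells with 0 or 1 others is given as a reference. RNA from outside the cell and a low level within it cannot be told apart in that share.

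The genes were lower with LPS. All 39 were lower in LPS than in Ctrl, with a median log2 difference of −0.49. By the quasi-likelihood test of edgeR, adjusted by Benjamini-Hochberg over 15099 genes with a threshold of 0.05, 25 of the 39 fell, where 28.9% of all genes tested fell. The median over all genes was −0.02. The 3 LPS cultures lay below all 3 Ctrl cultures for 16 of the 39, which was so for 31.1% of all genes. LPS was lower in all 3 pairs of the same number for 35 (39% of all genes). A fit with the culture's number as a block called 34 lower (31.7% of all genes), and the 5 others were FEN1, RFC3, CCNE1, CDC45 and GINS3. Without Ctrl-1 the unblocked count was 14, and without LPS-2 it was 15.

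With semagacestat the genes were higher, by less, and their calls rest on the pairing of cultures. All 39 were higher in Sema than in Ctrl, with a median log2 difference of 0.31 beside 0.00 for all genes. Without the block edgeR called 0 of the 39, and 2 of all 15099 genes (0.0132%). At an unadjusted p under 0.05 there were 12 of the 39 and 1076 of all genes, and DESeq2 also called 0 of the 39. With the block, 24 of the 39 rose and none fell, where 1.81% of 15387 genes rose, and DESeq2 with the block called 17. The Sema cultures lay above all Ctrl cultures for CDC45, CDCA7 and RFC3 only (6.85% of all genes). In same-number pairs, 31 of the 39 were higher in all 3 pairs (19.7% of all genes) and the other 8 in 2 of 3. The blocked count depended on single cultures: it was 5 without Ctrl-2, 4 without Ctrl-3, 6 without Sema-2, 4 without Sema-3 and 32 without Ctrl-1. PCNA, CDCA7 and TK1 were called whichever 1 culture was left out.

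Under LPS the inhibitor gave a similar picture. All 39 were higher in SemaLPS than in LPS, with a median of 0.35 beside 0.00 for all genes. Without the block edgeR and DESeq2 each called 0 of the 39, where 0.0132% of all genes passed in edgeR. At an unadjusted p under 0.05 there were 10 of the 39 and 822 of all genes. With the block 17 rose and none fell, where 1.22% of all genes rose. SemaLPS lay above LPS without overlap for CCNE1, E2F2, RRM1 and POLA1 (5.11% of all genes), and in all 3 pairs for 33 of the 39 (18.8% of all genes). The blocked count was 8 without LPS-1, LPS-2 or SemaLPS-2 and 7 without SemaLPS-3. PCNA, TYMS, RRM1, RRM2 and TK1 were called whichever 1 culture was left out.

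With the inhibitor present, the genes were again lower with LPS. Against Sema, SemaLPS was lower for 38 of the 39, all but CCNE1 (0.01), with a median of −0.50 beside −0.02 for all genes. Of the 39, 21 fell (30.3% of all genes), and 36 fell with the block (33.6% of all genes), all but RFC3, RRM2 and CCNE1. The SemaLPS cultures lay below all Sema cultures for 28 of the 39 (33.3% of all genes), and below in all 3 pairs for 36 (40.6%). These 4 comparisons share cultures: Ctrl, LPS, Sema and SemaLPS each enter a pair of them.

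The inhibitor's difference with LPS was not shown to differ from that without. The interaction called 0 of the 39 and 0 of 15099 genes (0%), in edgeR without the block and in DESeq2, with a median of 0.00. At an unadjusted p under 0.05 there were 0 of the 39 and 553 of all genes. With the block it called 0 of the 39 and 10 of all genes (0.065%), with 1 of the 39 at an unadjusted p under 0.05.

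The cultures also differed by number. In the blocked fit, number 1 exceeded the mean of numbers 2 and 3 for all 39 genes, by a median of 0.43, and 36 rose (8.49% of all genes), all but CCNE1, E2F2 and GINS3. This exceeds the inhibitor's median. The sum over the 39 genes was 1050, 646.1 and 693.2 CPM in Ctrl-1, -2 and -3. It was 1126, 927.6 and 909.9 in Sema, 597.1, 415.1 and 473.2 in LPS and 740.8, 543.7 and 625.5 in SemaLPS. Number 1 was highest in each condition, and Ctrl-1 lay above the lower pair of Sema cultures. Number 1 also had the lowest share of cells over 10% mitochondrial UMIs in each condition, given above, and the part of that share in this difference was not tested. A sum over a culture does not tell fewer replicating cells from less RNA in each.

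**Figure D2:**
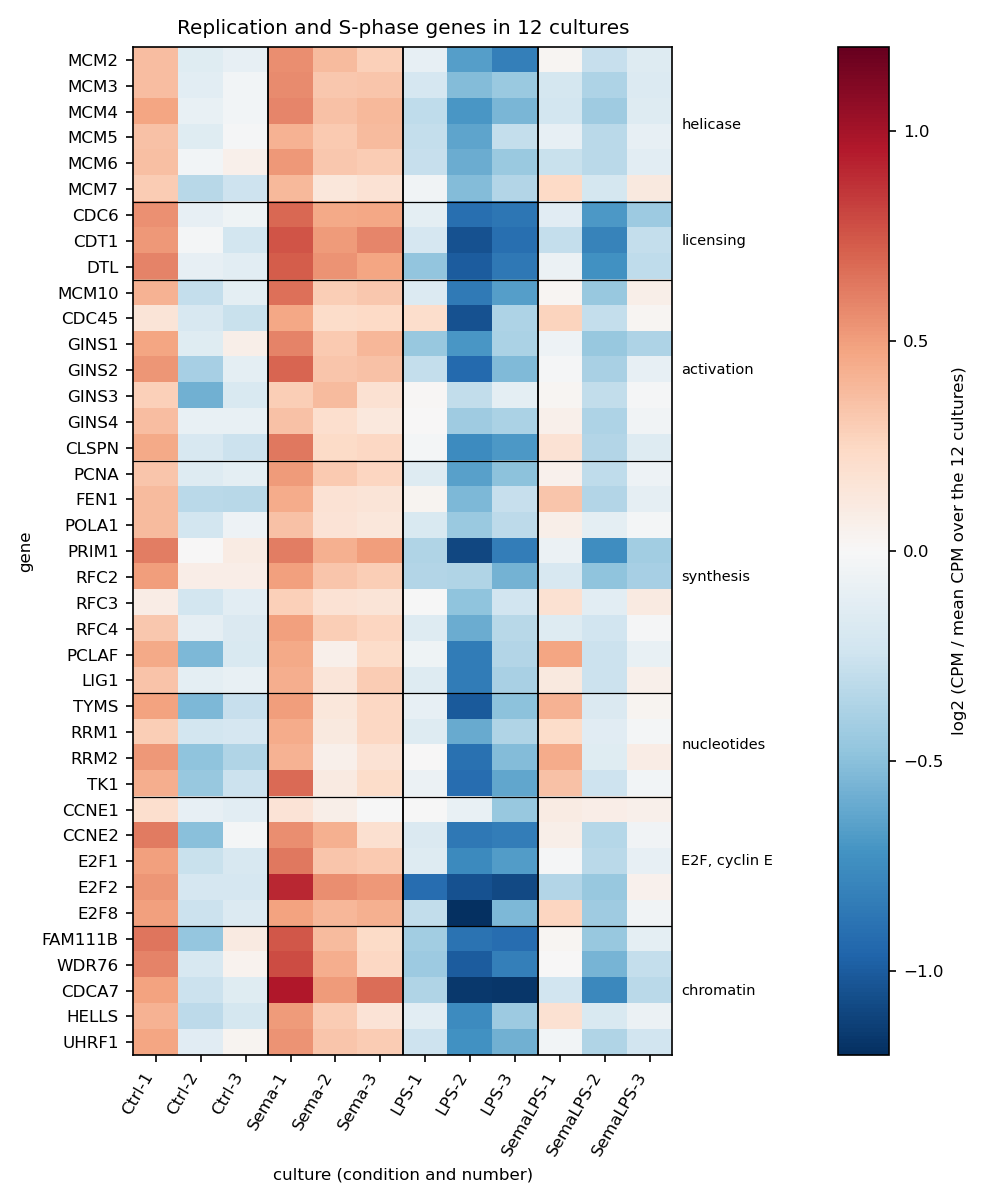
Log2 of the CPM of each gene (rows, in role groups) in each culture (columns) over the gene's mean CPM in the 12 cultures. Red is above and blue below that mean, LPS-2 and LPS-3 are the bluest columns, and the first culture of each condition is redder than the other two for most genes.

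In what follows, levels are CPM scaled by TMM, given for cultures 1, 2 and 3 of each condition in turn. CPM are not divided by gene length, so they are compared within a gene. Differences are log2 fold changes with their SE and adjusted p from edgeR's blocked fit, unless said otherwise. Positions are from GENCODE v29 on hg38, where all 39 are protein-coding genes on 18 chromosomes.

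All 6 subunits of the MCM2-7 helicase, the ring that unwinds the DNA ahead of the fork, fell with LPS in the blocked fit (5 without it, all but MCM7), with a median of −0.51. All 6 passed as higher with the inhibitor (median 0.31, none without the block). Under LPS all 6 were again higher but only MCM7 passed, and the interaction called none of them. MCM3 (chr6:52264009-52284881) had 45.7, 32.3 and 34.5 in Ctrl, 52.4, 44.2 and 44.5 in Sema, 30.7, 24.7 and 26.03 in LPS and 30.5, 27.3 and 31.6 in SemaLPS. The 3 LPS cultures lay below every Ctrl culture, and Ctrl-1 alone of the Ctrl cultures reached the Sema range. MCM3 rose with the inhibitor by 0.33 (SE 0.059, adjusted p = 0.0083) and fell by 0.65 with LPS in the presence of the inhibitor (SE 0.06, adjusted p = 5.2e-08). MCM6 (chr2:135839626-135876426) had 28.9, 22.1 and 23.6 in Ctrl, 32.2, 28.2 and 27.8 in Sema, 18.6, 14.9 and 16.6 in LPS and 18.7, 18.03 and 20.6 in SemaLPS. No LPS or SemaLPS culture reached the lowest culture without LPS. MCM6 fell with LPS by 0.57 (SE 0.068, adjusted p = 1.44e-06), and by the same 0.57 without the block (SE 0.11, adjusted p = 0.000331).

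MCM4 had 34.9, 23.5 and 24.5 in Ctrl, 37.7, 31.97 and 32.8 in Sema, 20.4, 15.5 and 17.1 in LPS and 21.6, 18.6 and 22.6 in SemaLPS. MCM5 (chr22:35400063-35425430) had 29.7, 21.1 and 23.1 in Ctrl, 31.3, 29.1 and 30.3 in Sema, 19.1, 15.03 and 19.2 in LPS and 21.9, 18.7 and 21.8 in SemaLPS. Both kept LPS below Ctrl without overlap, and their SemaLPS cultures lay below all Sema cultures. MCM4 fell with LPS by 0.64 and MCM5 by 0.46. MCM7 was the weakest of the set with LPS, at −0.22 (SE 0.072, adjusted p = 0.0122), a call lost without Ctrl-1.

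The 3 genes of origin licensing all fell with LPS. CDC6, the ATPase that recruits the helicase, CDT1, its partner, and DTL, the receptor of the ligase that destroys CDT1, passed with and without the block (median −0.80). All 3 rose with the inhibitor in the blocked fit (median 0.44), and none was called under LPS (median 0.23). DTL (chr1:212035553-212107400) had 13.1, 8.06 and 7.91 in Ctrl, 14.3, 12.6 and 11.99 in Sema, 6.21, 4.32 and 4.78 in LPS and 8.25, 5.22 and 6.97 in SemaLPS. CDC6 (chr17:40287633-40304657) had 12.6, 8.03 and 8.33 in Ctrl, 13.9, 11.8 and 11.9 in Sema, 7.97, 4.61 and 4.72 in LPS and 7.83, 5.33 and 6.38 in SemaLPS. For both, all 3 LPS cultures lay below all 3 Ctrl cultures. CDT1 had 9.56, 6.55 and 5.698 in Ctrl, 11.2, 9.45 and 10.0 in Sema, 5.77, 3.22 and 3.54 in LPS and 5.45, 3.81 and 5.45 in SemaLPS, where LPS-1 lay just above the lowest Ctrl culture. With LPS the falls were 0.91 for DTL, 0.74 for CDC6 and 0.80 for CDT1. In the presence of the inhibitor they were 0.94, 0.96 and 1.07 (SE 0.097, 0.092 and 0.12).

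Of the 7 genes of helicase activation and the fork checkpoint, 5 fell with LPS (3 without the block), all but CDC45 and GINS3. With the inhibitor CLSPN, GINS1, GINS2 and MCM10 rose in the blocked fit. CLSPN, which encodes claspin and relays the checkpoint signal at stalled forks (chr1:35720218-35769967), had 26.9, 17.2 and 16.5 in Ctrl, 30.6, 23.1 and 23.4 in Sema, 19.4, 11.7 and 12.2 in LPS and 22.2, 15.4 and 17.6 in SemaLPS. Its numbers 1 exceeded the other cultures in every condition. The SemaLPS cultures lay below all Sema cultures, and the groups of the other comparisons overlapped. It rose with the inhibitor by 0.36 (adjusted p = 0.00851) and under LPS by 0.36 (adjusted p = 0.0143). GINS2, a subunit of the GINS complex, had 22.2, 11.7 and 14.2 in Ctrl, 25.02, 19.4 and 19.6 in Sema, 12.6, 8.04 and 10.7 in LPS and 15.2, 11.7 and 14.4 in SemaLPS. MCM10, which helps start the helicase, had 12.6, 7.76 and 8.74 in Ctrl, 14.9, 11.6 and 11.8 in Sema, 8.47, 5.25 and 5.97 in LPS and 9.59, 6.903 and 9.95 in SemaLPS. Both overlapped between LPS and Ctrl, where LPS-1 exceeded the lowest Ctrl culture. GINS3 was the flattest with LPS, at −0.00 (SE 0.14).

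Of the 9 genes of polymerase alpha, the clamp, its loader and Okazaki fragment processing, 7 fell with LPS (6 without the block; median −0.37). With the inhibitor PCNA, PCLAF, FEN1 and RFC3 rose in the blocked fit, and under LPS PCNA, PCLAF, RFC3, POLA1 and LIG1 rose. PCNA, the sliding clamp (chr20:5114953-5126626), had 89.8, 64.1 and 65.9 in Ctrl, 102, 88.7 and 85.5 in Sema, 64.1, 45.4 and 50.8 in LPS and 74.2, 57.8 and 68.5 in SemaLPS. LPS lay below Ctrl without overlap, though LPS-1 and Ctrl-2 nearly met, and only Ctrl-1 among the Ctrl cultures reached the Sema range. Its mean was 73.3 ± 14.3 in Ctrl, 91.9 ± 8.49 in Sema, 53.4 ± 9.64 in LPS and 66.8 ± 8.31 in SemaLPS (SD, n = 3 cultures). PCNA fell with LPS by 0.45 (SE 0.058, adjusted p = 3.5e-06). It rose under LPS with the inhibitor by 0.33 (SE 0.058, adjusted p = 0.0068).

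PRIM1, the primase subunit that makes the RNA primer (chr12:56731596-56752373), had 16.6, 10.9 and 11.6 in Ctrl, 16.6, 14.6 and 15.4 in Sema, 8.47, 5.11 and 6.098 in LPS and 10.3, 6.49 and 8.15 in SemaLPS. RFC2, a clamp loader subunit (chr7:74231499-74254458), had 25.3, 18.97 and 18.9 in Ctrl, 25.2, 22.5 and 21.9 in Sema, 14.02, 13.9 and 12.1 in LPS and 15.7, 12.8 and 13.6 in SemaLPS. These had the smallest adjusted p of the 39 with LPS in the blocked fit, and in both the 6 cultures with LPS lay below the 6 without. PRIM1 fell by 0.99 (SE 0.095, adjusted p = 1.04e-07) and RFC2 by 0.65 (SE 0.066, adjusted p = 1.89e-07). Without the block the adjusted p were 0.000812 and 0.000211. With the inhibitor neither passed, at 0.27 and 0.15.

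PCLAF, a small protein that binds the clamp (chr15:64364311-64387687), had 99.4, 49.9 and 63.6 in Ctrl, 99.1, 75.3 and 84.2 in Sema, 69.9, 40.5 and 56.8 in LPS and 100.5, 60.4 and 68.2 in SemaLPS. FEN1, the nuclease that trims Okazaki flaps (chr11:61792637-61797244), had 38.1, 23.3 and 23.1 in Ctrl, 39.7, 32.9 and 32.4 in Sema, 29.8, 20.1 and 24.1 in LPS and 36.8, 22.9 and 27.2 in SemaLPS. In both the conditions overlapped and number 1 was highest in each. PCLAF rose under LPS with the inhibitor by 0.45 (SE 0.079, adjusted p = 0.00602). FEN1 did not pass with LPS, at −0.18 (adjusted p = 0.0609). FEN1 and PRIM1 are among 8 of the 39 whose exons overlap a protein-coding gene on the other strand (TMEM258 and HSD17B6 here), and no source used here says whether counting used strand. The others are CCNE2, GINS2, MCM2, MCM7, RFC4 and TYMS. FEN1 (FADS2), PRIM1 (NACA), PCLAF, RRM2 and HELLS also overlap a gene on the same strand.

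All 4 genes of nucleotide supply rose with the inhibitor under LPS in the blocked fit, with a median of 0.56. All 4 also fell with LPS in that fit (median −0.40) and none did without it. TYMS, thymidylate synthase, had 88.3, 43.2 and 51.9 in Ctrl, 89.3, 69.03 and 74.99 in Sema, 58.7, 31.4 and 44.7 in LPS and 84.2, 55.7 and 64.5 in SemaLPS. TK1, thymidine kinase (chr17:78174075-78187233), had 19.7, 10.6 and 12.2 in Ctrl, 23.4, 15.7 and 17.04 in Sema, 13.9, 7.77 and 9.503 in LPS and 18.7, 12.3 and 14.3 in SemaLPS. SemaLPS exceeded LPS in each pair of the same number, while the conditions overlapped. TYMS rose under LPS by 0.61 (SE 0.09, adjusted p = 0.00161) and TK1 by 0.55 (SE 0.068, adjusted p = 0.000542). Without LPS TK1 rose by 0.41 (SE 0.064, adjusted p = 0.00293).

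RRM1, the large subunit of ribonucleotide reductase (chr11:4094707-4138876), had 38.5, 26.9 and 27.3 in Ctrl, 42.7, 34 and 37.2 in Sema, 28.1, 20.5 and 24.4 in LPS and 36.5, 28.5 and 30.8 in SemaLPS. RRM2, the small subunit made in S phase (chr2:10120698-10131419), had 27.1, 13.5 and 14.7 in Ctrl, 25.3, 19.8 and 21.4 in Sema, 18.9, 10.2 and 13.2 in LPS and 25.7, 17.1 and 20.2 in SemaLPS. The 3 SemaLPS values of RRM1 all exceeded the LPS values, and those of RRM2 overlapped. Under LPS RRM1 rose by 0.39 (SE 0.053, adjusted p = 0.000855) and RRM2 by 0.58 (SE 0.1, adjusted p = 0.0055). Number 1 exceeded the other numbers by 0.61 for TK1 (SE 0.048), 0.59 for RRM2, 0.58 for TYMS and 0.35 for RRM1.

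Of the 5 genes of cyclin E and the E2F family, 4 fell with LPS with and without the block, all but CCNE1. All 5 were higher with the inhibitor, without and under LPS, but in the blocked fit only E2F1 passed without LPS and only E2F8 under it. E2F2, an activating E2F (chr1:23506430-23531220), was the lowest of the 39 in UMIs, with 29 to 128 per culture. It had 2.502, 1.503 and 1.51 in Ctrl, 3.24, 2.56 and 2.49 in Sema, 0.9197, 0.841 and 0.818 in LPS and 1.36, 1.26 and 1.798 in SemaLPS. LPS lay below all Ctrl cultures and below all SemaLPS cultures. E2F2 fell with LPS by 1.08 (SE 0.20, adjusted p = 0.000195), the largest fall of the 39 in size. With the inhibitor it was higher by 0.59 (adjusted p = 0.0575) and under LPS by 0.77 (adjusted p = 0.072), neither of which passed.

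E2F1 (chr20:33675683-33686404) had 12.7, 7.52 and 7.91 in Ctrl, 14, 11.4 and 11.3 in Sema, 8.14, 5.34 and 5.67 in LPS and 8.95, 7.25 and 8.45 in SemaLPS. CCNE2, a cyclin E, had 15.98, 7.34 and 10.2 in Ctrl, 15.3, 13.9 and 11.9 in Sema, 9.197, 5.74 and 5.83 in LPS and 10.9, 8.21 and 10.1 in SemaLPS. CCNE1, the other cyclin E (chr19:29811898-29824308), had 6.27, 5.11 and 4.99 in Ctrl, 6.11, 5.73 and 5.43 in Sema, 5.46, 5.13 and 3.99 in LPS and 5.85, 5.78 and 5.695 in SemaLPS. CCNE1 was nearly level, with means between 4.86 and 5.78 CPM, and passed in none of the comparisons above. CCNE2 fell with LPS by 0.68 (SE 0.14) and E2F1 by 0.55 (SE 0.10).

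The 5 genes of chromatin and other roles all fell with LPS in the blocked fit (median −0.87), 4 of them without the block, all but HELLS. With the inhibitor CDCA7, HELLS and WDR76 rose in the blocked fit, and under LPS HELLS, WDR76 and FAM111B. CDCA7, which works with the remodeler HELLS (chr2:173354820-173368997), had 7.66, 4.601 and 4.96 in Ctrl, 10.7, 7.81 and 8.74 in Sema, 4.29, 2.47 and 2.46 in LPS and 4.702, 3.21 and 4.39 in SemaLPS. The 3 Sema cultures lay above all Ctrl cultures, and the 3 LPS cultures below them. CDCA7 had the smallest adjusted p of the 39 with the inhibitor, a rise of 0.67 (SE 0.098, adjusted p = 0.00231). Without the block it was 0.66 (SE 0.22, adjusted p = 0.625). With LPS in the presence of the inhibitor it fell by 1.15 (SE 0.10, adjusted p = 2.8e-08).

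WDR76 (chr15:43826963-43868419) had 11.9, 6.89 and 8.09 in Ctrl, 13.5, 10.6 and 9.36 in Sema, 5.797, 3.94 and 4.46 in LPS and 7.91, 5.33 and 6.46 in SemaLPS. UHRF1, which carries DNA methylation over to new strands (chr19:4903080-4962154), had 15.2, 9.95 and 11.2 in Ctrl, 15.8, 13.7 and 13.5 in Sema, 9.17, 6.61 and 7.34 in LPS and 10.7, 8.52 and 9.29 in SemaLPS. In both, LPS lay below Ctrl without overlap. WDR76 fell with LPS by 0.91 (adjusted p = 3.83e-07) and UHRF1 by 0.64 (adjusted p = 1.17e-06). HELLS (chr10:94501434-94613905) had 48.5, 29.1 and 31.3 in Ctrl, 51.8, 44.8 and 40.8 in Sema, 33.3, 21.5 and 26.8 in LPS and 41.1, 31.9 and 34.6 in SemaLPS. FAM111B had 20.2, 9.41 and 14.02 in Ctrl, 21.8, 16.9 and 15.2 in Sema, 9.73, 7.05 and 6.92 in LPS and 13.2, 9.49 and 12.02 in SemaLPS. Both overlapped between LPS and Ctrl, and fell by 0.40 and 0.87 in the blocked fit.

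**Figure D3:**
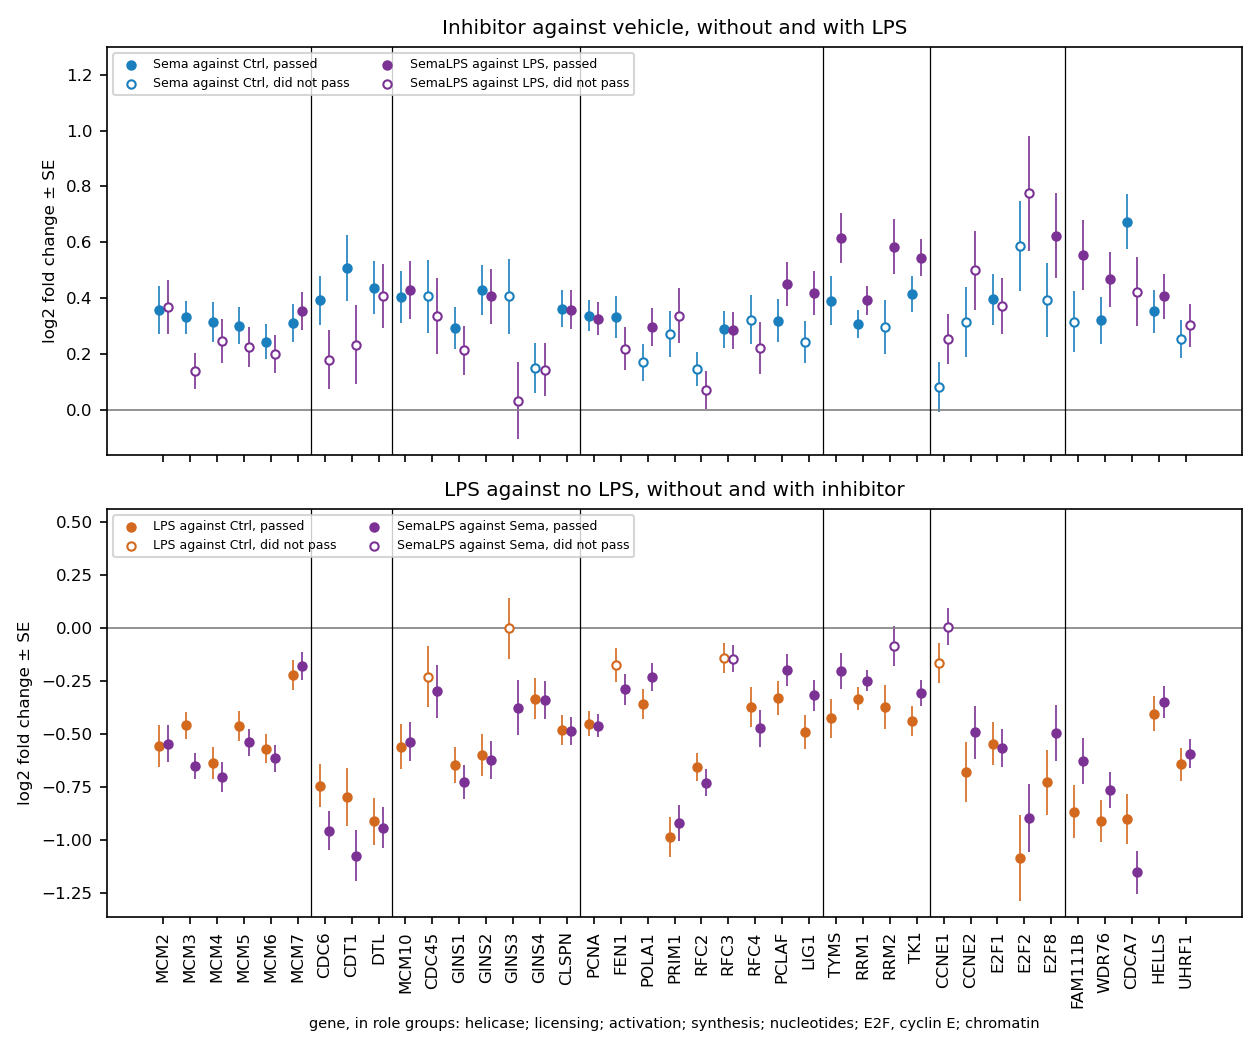
Log2 fold change with its SE for each of the 39 genes in the fit with the replicate block, with the inhibitor's differences in the upper panel and those of LPS in the lower one, and filled points past an adjusted p of 0.05. All points of the upper panel are above 0, and those of the lower panel lie below it apart from CCNE1 in SemaLPS against Sema, at 0.01, with GINS3 in LPS against Ctrl next to it at −0.00.

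Other genes of the cell cycle, from lists chosen with earlier results of these data known, moved less uniformly. Of 51 other replication genes, 29 fell and 3 rose with LPS in the blocked fit (26 and 2 without it), where 31.7% of all genes fell and 32.7% rose, with a median of −0.23. Among them RPA1, of the complex that coats single-stranded DNA, fell by 0.56 and RFC1, of the clamp loader, by 0.45, while the polymerase subunit POLD2 rose by 0.67. With the inhibitor 8 rose (0 without the block), where 1.81% of all genes rose, among them DUT, which clears dUTP (0.28, adjusted p = 0.00165), GMNN (0.27), RPA3 (0.25) and NASP (0.22). Under LPS 4 rose (1.22% of all genes), among them DUT (0.26), EXO1 (0.74) and RPA3 (0.19). These counts depended on single cultures: the 8 became 1 without Ctrl-3 and 17 without Ctrl-1, and the 4 became 2 without LPS-1 and 7 without Ctrl-1. Of 26 genes of G1/S control, 12 rose (32.7% of all genes) and 11 fell (31.7% of all genes) with LPS, among them MYC (1.35), CDK6 (0.87) and CCND1 (0.52), which rose, and RB1, which fell by 0.63. With the inhibitor 2 of the 26 rose (1.81% of all genes), CDK4 (0.15) and E2F7 (0.46). Under LPS none was called, with 4 at an unadjusted p under 0.05 in edgeR.

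Of 38 genes of G2 and mitosis, 25 fell (31.7% of all genes) and 2 rose (32.7% of all genes) with LPS in the blocked fit (6 and 0 without it). Without Ctrl-1 the blocked falls were 15, and the unblocked ones were 1 without Ctrl-1 or LPS-2 and 18 without Ctrl-2. TOP2A fell by 0.89, ANLN by 0.64, BUB1 by 0.59 and CCNB2 by 0.45. With the inhibitor 2 rose (1.81% of all genes), CKS1B (0.27) and MYBL2 (0.48). Under LPS 5 rose (1.22% of all genes), among them BIRC5 (0.40), MYBL2 (0.52), NUSAP1 (0.35) and CKS1B (0.22). The 2 became 0 without Ctrl-2 and 11 without Ctrl-1, and the 5 became 0 without LPS-1 and 12 without Ctrl-1. All 38 rose in number 1 (median 0.51), where 8.49% of all genes rose. Their sum, without TMM scaling, was 1338, 706.3 and 900.6 CPM in Ctrl, 1258, 974.4 and 1037 in Sema, 777.9, 579.3 and 698.9 in LPS and 1042, 686.7 and 684.6 in SemaLPS. Sema overlapped Ctrl, and LPS overlapped Ctrl through LPS-1.

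Fewer cells carried many of the genes with LPS, and more with the inhibitor. The share of cells with 5 or more of the 39 was 26.7, 15.7 and 19.3% in Ctrl, 30.9, 24.9 and 24.5% in Sema, 16.6, 13.4 and 13.01% in LPS and 21.7, 15.2 and 16.6% in SemaLPS. The means were 20.6 ± 5.58, 26.8 ± 3.60, 14.3 ± 1.99 and 17.8 ± 3.43% (SD, n = 3 cultures), and without thinning 55.7, 60.3, 47.6 and 50.2%. Sema exceeded Ctrl and SemaLPS exceeded LPS in each same-number pair, while the groups overlapped. The differences of the means were 6.17 points for Sema and −6.24 for LPS against Ctrl, 3.45 for SemaLPS against LPS and −8.96 against Sema, with no test. Without Ctrl-2 the first was 3.75, without Ctrl-1 the second was −3.19, and without SemaLPS-1 the third was 1.51.

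The share with 8 or more was 20.7, 10.7 and 12.5% in Ctrl, 23.4, 18.2 and 17.8% in Sema, 11.3, 7.62 and 9.42% in LPS and 14.6, 10.2 and 10.9% in SemaLPS. The UMIs of the genes in those cells are a description, since the same genes chose the cells. Per such cell, thinned to 10000 UMIs, there were 36.2, 36.4 and 34.4 in Ctrl, 35.1, 34.5 and 34.8 in Sema, 31.0, 27.8 and 26.8 in LPS and 31.1, 29.6 and 34.5 in SemaLPS. The LPS cultures lay below all Ctrl cultures, the Sema cultures within the Ctrl range, and SemaLPS-3 within it too.

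**Figure D4:**
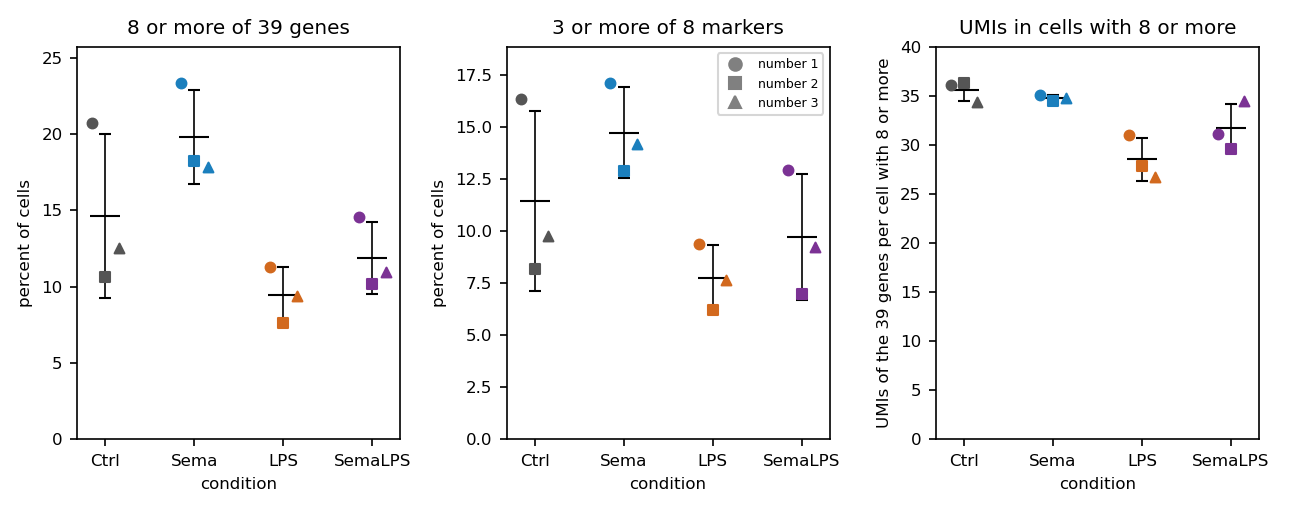
Percent of thinned cells with 8 or more of the 39 genes (left), percent with UMIs of 3 or more of 8 division markers that are not among the 39 (middle) and UMIs of the 39 genes per cell with 8 or more (right), by condition, with a symbol for each culture number and bars for the mean ± SD of 3 cultures. The left share spans 7.62% in LPS-2 to 23.4% in Sema-1, and number 1 is highest in each condition in both shares.

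Cells were also divided by 8 division markers outside the 39 (MKI67, TOP2A, CCNA2, CCNB1, CCNB2, CDK1, CDC20 and BIRC5), a division chosen after seeing the data. Of 14651 cells, 1593 (10.9%) had UMIs of 3 or more and are called dividing-range cells, and 9130 (62.3%) had none and are called marker-negative. Near the bound, 698 cells had 2 markers and 297 had 3. The dividing range held 16.4, 8.20 and 9.76% of cells in Ctrl, 17.1, 12.9 and 14.2% in Sema, 9.39, 6.22 and 7.66% in LPS and 12.96, 6.97 and 9.25% in SemaLPS. Of the dividing-range cells, 85.7, 88.5 and 85.4% in Ctrl and 89.4, 88.1 and 89.3% in Sema had 8 or more of the 39 genes. The shares were 75.2, 76.1 and 76.0% in LPS and 79.01, 79.8 and 84.6% in SemaLPS, so the range differed in makeup between conditions. LPS also lowered markers used for the division, among them TOP2A and CCNB2, and the part of both in the results within the ranges was not tested. Cells in S phase that lack these markers fall in neither range or in the marker-negative one, where 0.88 to 3.60% of a culture's cells had 8 or more of the 39 genes.

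Within dividing-range cells most helicase subunits also fell with LPS. Without the block, 21 of the 39 fell with LPS and none rose, where 17% of 11290 genes fell, with a median of −0.29 beside −0.01. Of the MCM2-7 subunits 5 fell, and of the nucleotide supply genes none. MCM5 had 81.5, 86.3 and 78.98 CPM in Ctrl and 49.2, 49.1 and 46.5 in LPS, and MCM4 had 118, 122 and 111 against 69.96, 71.1 and 75.03. In both, the groups were far apart. MCM5 fell by 0.77 (SE 0.096, adjusted p = 8.94e-07), MCM6 by 0.73, MCM4 by 0.70, and MCM3 and WDR76 by 0.59 each, in edgeR's test.

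In the same cells none of the inhibitor's differences passed without the block. Its counts with the block in these cells are not reported here. The unblocked medians below compare with 0.31 for Sema against Ctrl and 0.35 for SemaLPS against LPS over all cells. A difference that did not pass is not shown to be absent. For Sema against Ctrl edgeR called 0 of the 39 and 0 of all genes (0%), with 2 and 616 at an unadjusted p under 0.05 and a median of 0.05. For SemaLPS against LPS it called 0 of the 39 and 0 of all genes (0%), with 11 and 691 at an unadjusted p under 0.05 and a median of 0.14. Number 1 differed from the other numbers in 0 of the 39 (0.443% of all genes; median −0.02), with 3 of the 39 at an unadjusted p under 0.05. DESeq2 was not run on these cells. Their summed depth was 2459975 to 7842415 UMIs per culture, less than the whole cultures had. SemaLPS against Sema was mixed, with 16 falls (20.2% of all genes) and 3 rises (20.7% of all genes). The rises were RRM2 (0.38), TYMS (0.20) and PCLAF (0.17). RRM2 had 126, 124 and 128 CPM in Sema and 156, 165 and 171 in SemaLPS, which do not overlap.

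Among marker-negative cells fewer of the genes passed with LPS, in each direction, than the share of all genes. Of the 39, 37 passed the filter on low counts, all but E2F2 and E2F8. Some of the 37 still had few UMIs, which makes a call less likely. In Ctrl CDC45 had 12, 7 and 9 UMIs there and FAM111B had 8, 13 and 12. With LPS 8 rose (29.2% of 14349 genes) and 5 fell (28.2% of all genes). The rises were of FEN1, CLSPN, HELLS, GINS2, MCM7, RFC3, CCNE2 and GINS3, and the falls of PRIM1, RFC2, PCNA, LIG1 and CDT1. FEN1 had 7.16, 7.68 and 7.097 CPM in Ctrl and 11.6, 11.2 and 10.4 in LPS and rose by 0.59 (SE 0.12). PRIM1 had 5.098, 4.51 and 4.196 against 2.82, 2.14 and 2.17 and fell by 0.95. Neither pair of groups overlapped. With the inhibitor edgeR called 0 of the 37 and 0 of all genes (0%) without the block, with 9 and 1115 at an unadjusted p under 0.05. With the block CDCA7 (1.204) and GINS2 (0.65) rose, where 0.975% of all genes rose. Of the marker-negative cells, 1.88, 1.53 and 1.15% in Ctrl and 2.82, 3.60 and 2.21% in Sema had 8 or more of the 39 genes. The shares were 2.08, 1.59 and 2.20% in LPS and 1.79, 2.30 and 0.88% in SemaLPS. The part of these shares in the results within this range was not tested. Over all cells, CDCA7 had 83.64% and GINS2 82.85% of its UMIs in cells with 8 or more others. CDCA7 had 0.789, 0.992 and 0.518 CPM in Ctrl and 1.87, 1.47 and 1.88 in Sema, with no overlap. For SemaLPS against LPS edgeR called 0 of the 37 without the block (0.00697% of all genes), with 1 at an unadjusted p under 0.05. For SemaLPS against Sema 4 of the 37 rose (30.1% of all genes) and 7 fell (29.3% of all genes), among them PRIM1, RFC2 and PCNA.

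The LPS response itself was compared between the 2 ranges in 1 fit with the culture as a block. It was lower in dividing-range than in marker-negative cells for 12 of the 37 genes tested in both ranges and higher for none, where 3.07% of 12266 genes passed lower and 6.24% either way. CCNE2, CDCA7, GINS2 and CLSPN differed most among those called. These rest on few UMIs in marker-negative cells. There CCNE2 had 12, 17 and 12 UMIs in Ctrl and 39, 32 and 41 in LPS. GINS2 had 45, 45 and 34 in Ctrl and 88, 84 and 78 in LPS, and CLSPN 30, 37 and 37 against 87, 75 and 73. Without Ctrl-1 or without LPS-1, 7 were called. For the inhibitor the same test called 0 of the 37 and 0 of all genes (0%), with 7 and 513 at an unadjusted p under 0.05.

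**Figure D5:**
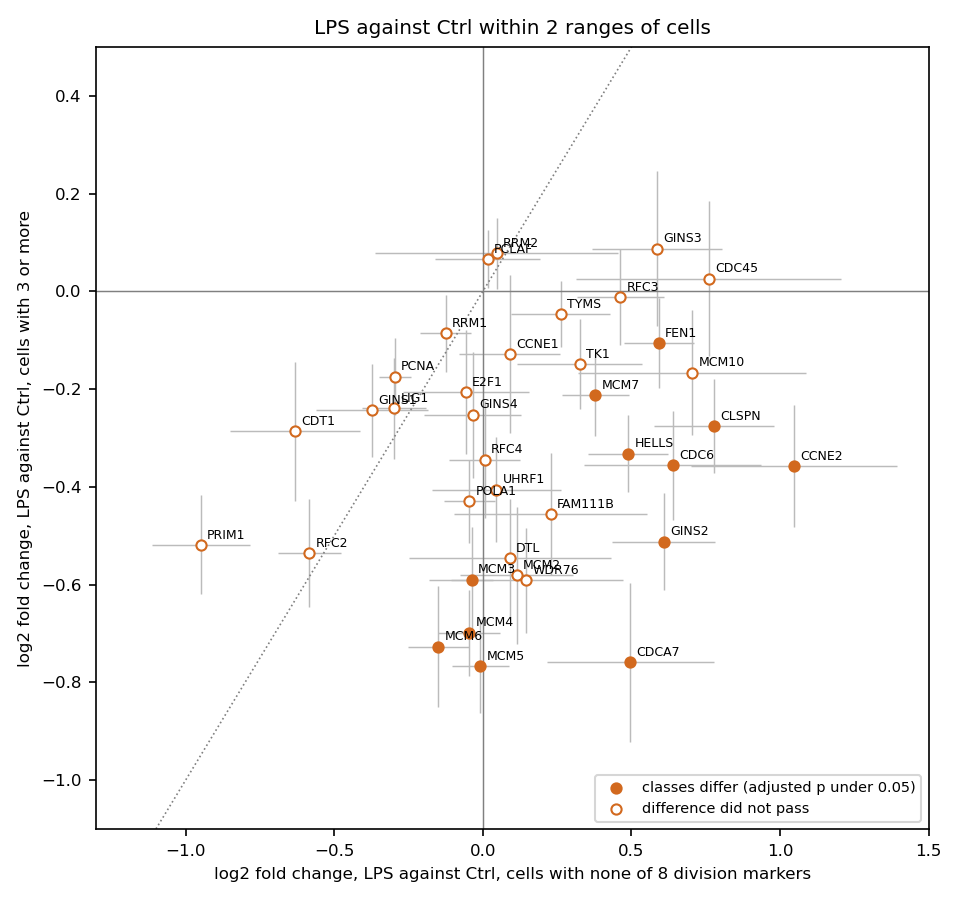
Log2 fold change of LPS against Ctrl, with its SE, in cells with none of 8 division markers (x axis) and in cells with 3 or more of them (y axis), for the 37 of the 39 genes measured in both. Points below the dotted line of equal change fell more or rose less in the dividing range, and the 12 filled ones differ between the ranges at an adjusted p under 0.05.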

How the data were processed

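The authors deposited UMI counts per gene and barcode for 2 droplet libraries, with hashtag counts for the same barcodes. The submitters' processing notes name Cell Ranger 3.0.2, Seurat 4.1.1 and the hg38 genome, and the header of the deposited matrices names Cell Ranger 6.0.1. No source used here says whether counting used strand.

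Barcodes were assigned from hashtag counts, log-ratio centred per hashtag, with a negative binomial cutoff at the 99th percentile of each hashtag's background. Of 28943 barcodes, 21945 had 1 hashtag, 6511 had several and were removed as doublets, and 487 had none. Doublets within a culture were not removed and no doublet caller was run. Kept cells had 1000 or more genes and a mitochondrial share of at most 10%. Counts were summed per culture, and 12 sums were tested in 1 fit with edgeR 4.0.16 (quasi-likelihood F test, TMM scaling, filterByExpr, Benjamini-Hochberg adjustment at 0.05) in R 4.3.3. DESeq2 1.42.0 was the alternative. Levels of single genes are TMM-scaled CPM, sums over lists are CPM of all UMIs, and SE is the log2 fold change over the square root of F. The script was tested on simulated data.

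The pairing of cultures comes from the number in the hashtag labels. Over 5281 genes, deviations from the condition means correlated between 0.446 and 0.743 in all 18 pairs of cultures with the same number, and between -0.549 and 0.167 in 36 other pairs, so the numbers were taken to pair the cultures. What they stand for is not stated.

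The members and gene lists were chosen with earlier results of these data known. All 39 genes could be named. Values per culture were given for the 5 with the smallest adjusted p in each comparison and the 3 with the highest mean CPM in each role, with E2F2 added after its values were seen. For other lists up to 4 genes with the smallest p were named in each comparison. Some genes that this rule names are not reported here. Alternatives were DESeq2 size factors and test, no filter, each library alone, another hashtag rule, a mitochondrial limit of 20%, the replicate block, and leaving out each culture. Counts of cells with a gene used cells thinned to 10000 UMIs. Shares and levels carry culture-to-culture SDs, which contain counting error.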

Additional observations from a re-analysis of the deposited data

Results flagged for a closer look

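The difference between LPS and Ctrl differed between dividing-range and marker-negative cells for 12 of the 37 genes tested in both, in edgeR's quasi-likelihood test of the difference itself with the culture as a block. The values are log2 differences, dividing range minus marker-negative, and all 12 are negative. In the helicase they were −0.49 for MCM3, −0.59 for MCM4, −0.71 for MCM5, −0.53 for MCM6 and −0.53 for MCM7. CDC6 of origin licensing had −0.96, GINS2 had −1.05 and CLSPN −1.001. FEN1 had −0.64, CCNE2 had −1.32, HELLS had −0.76 and CDCA7 had −1.21. The ranges were set after seeing the data. Some of these genes had few UMIs in marker-negative cells, where CDC6 had 9, 17 and 15 in Ctrl and CCNE2 had 12, 17 and 12. The dividing range differed in makeup between Ctrl and LPS, as given above, and its part in these values was not tested.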

How the results depend on the processing

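Without the replicate block, the counts of the 39 genes called were 0 for Sema against Ctrl, 25 for LPS against Ctrl, 0 for SemaLPS against LPS and 21 for SemaLPS against Sema. Adding the block gave 24 for the first, 17 for the third and 36 for the last. The block together with DESeq2 size factors gave 21, 17 and 35, and with DESeq2's Wald test 17 and 17 for the inhibitor. With the block, library 1 alone gave 11, 4 and 32, library 2 alone 9, 14 and 34, the ratio of the top hashtags 21, 8 and 36 and a mitochondrial limit of 20% 18, 21 and 32. The block changed no call of the interaction.

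Leaving out each culture gave 14 to 32 for LPS against Ctrl, 0 to 0 for Sema against Ctrl and SemaLPS against LPS, and 15 to 28 for SemaLPS against Sema. With the block the ranges were 4 to 32 for Sema against Ctrl (6 without Sema-2, 22 without LPS-1, 26 without SemaLPS-3), 32 to 36 for LPS against Ctrl, 7 to 24 for SemaLPS against LPS, 31 to 38 for SemaLPS against Sema and 33 to 37 for number 1. The difference between cell ranges gave 7 to 12 calls. The share of cells with 5 or more of the genes gave 3.75 to 9.22 points for Sema against Ctrl, −8.66 to −3.19 for LPS against Ctrl, 1.51 to 4.78 for SemaLPS against LPS and −10.9 to −6.88 for SemaLPS against Sema.

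The class of cells planned at first, with at least 5 UMIs of proliferation genes, held 91.0% of cells. In it the block moved Sema against Ctrl from 0 to 19, SemaLPS against LPS from 0 to 15 and SemaLPS against Sema from 20 to 32, and LPS against Ctrl was 23, or 15 with at least 10 UMIs. In the other cells LPS against Ctrl gave 2, then 1 at 3 UMIs and 8 at 10, and SemaLPS against Sema gave 2, then 0 and 9. In marker-negative cells the block moved Sema against Ctrl from 0 to 2. Over 147 results for single genes and 5199 alternatives, 4100 kept direction and side of the threshold, 1032 passed only in the alternative, 67 passed only as reported and 0 changed direction. Only genes that passed a comparison without or with the block entered these 147 results. Genes near 0 were thus left out, and a change of direction was unlikely from the start. The cause of these shifts was not tested, and the alternatives with the block and other cells, and both cell ranges, were chosen after seeing the data.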
